A study of Mus musculus with 8 samples.

Results

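Expression of the 7 mammalian sirtuins (*Sirt1* to *Sirt7*) and of 2 enzymes that make their cosubstrate NAD, *Nampt* and *Nmnat2*, was compared across 4 hypothalamic nuclei of the mouse. The members were all probes that the array files pair with a RefSeq accession of one of these 9 genes, which gave 12 probes out of 55681 on the array, for 9 of the 20284 genes that could be named in this way. *Sirt4*, *Sirt6*, and *Sirt7* each had 2 probes and the other 6 genes had 1. The nuclei were the arcuate nucleus (Arc), the ventromedial hypothalamus (VMH), the dorsomedial hypothalamus (DMH), and the lateral hypothalamus (LH), each cut out by laser microdissection and measured on 2 of the 8 arrays. All groups shared their genotype and treatment, being untreated C57BL/6 females at 3 months of age (C57BL/6J in the methods), and the methods give 2 mice as the source. The labels do not say which arrays share a mouse, so each p below measures the spread between these arrays, which may be partly technical. The study profiled the nuclei to find genes enriched in the DMH and takes up *Sirt1* in the DMH and LH as background from earlier work. The comparisons made here asked whether the members differed between the nuclei and whether the DMH and LH together differed from the Arc and VMH.

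Sirtuins remove acetyl and other acyl groups from proteins and consume NAD in doing so, which ties their activity to the energy state of the cell. *Sirt1*, *Sirt6*, and *Sirt7* encode mainly nuclear proteins, *Sirt2* a mainly cytosolic one, and *Sirt3*, *Sirt4*, and *Sirt5* mitochondrial ones. Most NAD in mammals is rebuilt from nicotinamide, first by NAMPT, the rate-limiting enzyme of this salvage route, and then by the NMNAT enzymes, of which NMNAT2 is the form of neuronal cytoplasm and axons. In the hypothalamus, *Sirt1* is known for its part in feeding, body temperature, and sleep.

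The bases just before the transcription start are shown for *Sirt1*, the closest mammalian relative of yeast Sir2, and for the 3 members with the largest differences between nuclei. RefSeq (GRCm38.p6) gives 11 start sites for the 9 genes. The windows of 250 bases printed here lie at chr10:63339036-63339285 on the minus strand for *Sirt1*, chr7:28766502-28766751 on the plus strand for *Sirt2*, chr7:140882310-140882559 on the minus strand for the outer of the 2 starts of *Sirt3*, and chr12:32820085-32820334 on the plus strand for *Nampt*. Each is written 5′ to 3′ on the strand of the gene, and capitals mark the E-box CACGTG, the motif read by CLOCK and its partner, which is the same on both strands.
Sirt1: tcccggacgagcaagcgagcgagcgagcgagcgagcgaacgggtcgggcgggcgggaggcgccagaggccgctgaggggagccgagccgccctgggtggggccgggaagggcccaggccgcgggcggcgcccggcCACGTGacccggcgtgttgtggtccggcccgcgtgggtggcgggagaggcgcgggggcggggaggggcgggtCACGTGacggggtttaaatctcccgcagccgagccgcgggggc
Sirt2: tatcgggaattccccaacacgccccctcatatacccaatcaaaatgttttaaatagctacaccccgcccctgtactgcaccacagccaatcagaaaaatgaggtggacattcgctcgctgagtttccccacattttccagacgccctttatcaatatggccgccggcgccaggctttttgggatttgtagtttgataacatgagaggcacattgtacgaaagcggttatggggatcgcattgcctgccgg
Sirt3: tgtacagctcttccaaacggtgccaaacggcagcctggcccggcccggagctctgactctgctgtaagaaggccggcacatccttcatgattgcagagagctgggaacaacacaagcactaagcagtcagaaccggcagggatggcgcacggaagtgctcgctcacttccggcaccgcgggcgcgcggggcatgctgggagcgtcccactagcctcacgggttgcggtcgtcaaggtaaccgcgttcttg
Nampt: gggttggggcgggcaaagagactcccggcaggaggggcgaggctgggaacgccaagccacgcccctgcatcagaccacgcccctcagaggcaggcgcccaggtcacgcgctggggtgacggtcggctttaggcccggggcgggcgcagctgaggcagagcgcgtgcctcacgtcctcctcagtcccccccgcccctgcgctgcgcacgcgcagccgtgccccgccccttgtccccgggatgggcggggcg
The E-box was present in 1 of the 11 member windows, that of *Sirt1*, which held 2 copies, against 6.02% of the 32851 promoters of the table. The same window was rich in CpG, with 39 CpG dinucleotides and 79.2% G and C, where the median promoter of the table had 6 CpG and 52.4% G and C. The 11 member windows held between 12 and 39 CpG, with a median of 15. These are descriptions of sequence, and no measurement on the arrays bears on binding at these windows.

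Signals are given as scaled signals, which are the deposited intensities after division of each array by its 75th percentile, in arbitrary units that can be compared between arrays for 1 probe but not between probes. All 12 probes were well above background, in the call of the scanner software, on all 8 arrays, so every nucleus gave a measured level for every gene. Between 47.1% and 52.7% of the spots of an array were well above background and no spot was saturated. The 2 arrays of a nucleus correlated at 0.981 (Arc), 0.978 (VMH), 0.971 (DMH), and 0.938 (LH) over the 28896 probes tested, and 364 outlier spots were marked on LH1 against 126 to 161 on the other arrays. LH2 correlated more closely with DMH2 (0.954) than with LH1, and several values below rest on 1 LH array. The summed signals of *Hcrt* and *Pmch*, the neuropeptide genes that mark the LH, were 123622 and 133754 on the LH arrays but also 72193 and 62914 on the DMH arrays, against at most 4623 in the VMH and 312 in the Arc, so the DMH arrays carried LH markers. The 4 Arc markers, the 2 VMH markers, and the 4 DMH markers each summed highest on the arrays of their own nucleus. *Crh*, a marker of the paraventricular nucleus, read 2026 and 2543 in the DMH and 4931 and 3623 in the LH, against at most 265 elsewhere. The 5 anterior pituitary markers summed to 1662 on Arc1 and to at most 254 on any other array. The study itself found no contamination of its dissected nuclei by quantitative PCR of *Agrp*, *Nr5a1*, *Hcrt*, and *Crh*. Outside the DMH, the 4 DMH markers were highest on LH1, with a sum of 1084 and all 4 well above background, against 154 and none of the 4 on LH2.

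The members differed between nuclei about as much as other probes did. None of the 12 probes passed the F-test among the 4 nuclei at an adjusted p of 0.05 (limma), where 8.34% of all tested probes did. An unadjusted p under 0.05 was found for 2 of the 12 (*Sirt2* and *Sirt3*). Such p were common, since the next smallest of the members, 0.0512 for *Nampt*, ranked 7189 among the 28896 tested probes (24.9%). An unmoderated F-test called 0 of the 12 and 527 of the 28896 tested probes. In the pairwise comparisons, 1 probe passed, *Sirt3* between the Arc and the LH. No member reached the 10-fold ratio to every other nucleus that the study used for enrichment, and at a minimum of 2-fold 1 did, *Sirt2* in the LH. That ratio was 2.02 between means of scaled signals but 1.66 without scaling, and the fitted folds of LH over Arc and LH over DMH were 1.99 and 1.98. The log2 difference between the highest and the lowest nucleus had a median of 0.69 over the 12 probes and 0.65 over all tested probes. The highest nucleus was the LH for 4 of the 9 genes, the VMH for 2, the DMH for 2, and the Arc for 1, taking the brighter probe of each gene. With 2 arrays a nucleus, the 95% interval of a pairwise log2 difference reached 0.50 to 1.01 to either side. These intervals are not adjusted for the number of probes, so larger differences could also miss the threshold. One of them was LH minus VMH of *Sirt2*, at 1.20 (adjusted p = 0.063 in limma). Orders of arrays given below are those of scaled signals. On unscaled signals, *Sirt2* was still above all other arrays in the LH and *Sirt3* below all others in the Arc, and for no other member named below did a nucleus stay above or below all other arrays.

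**Figure D1:**
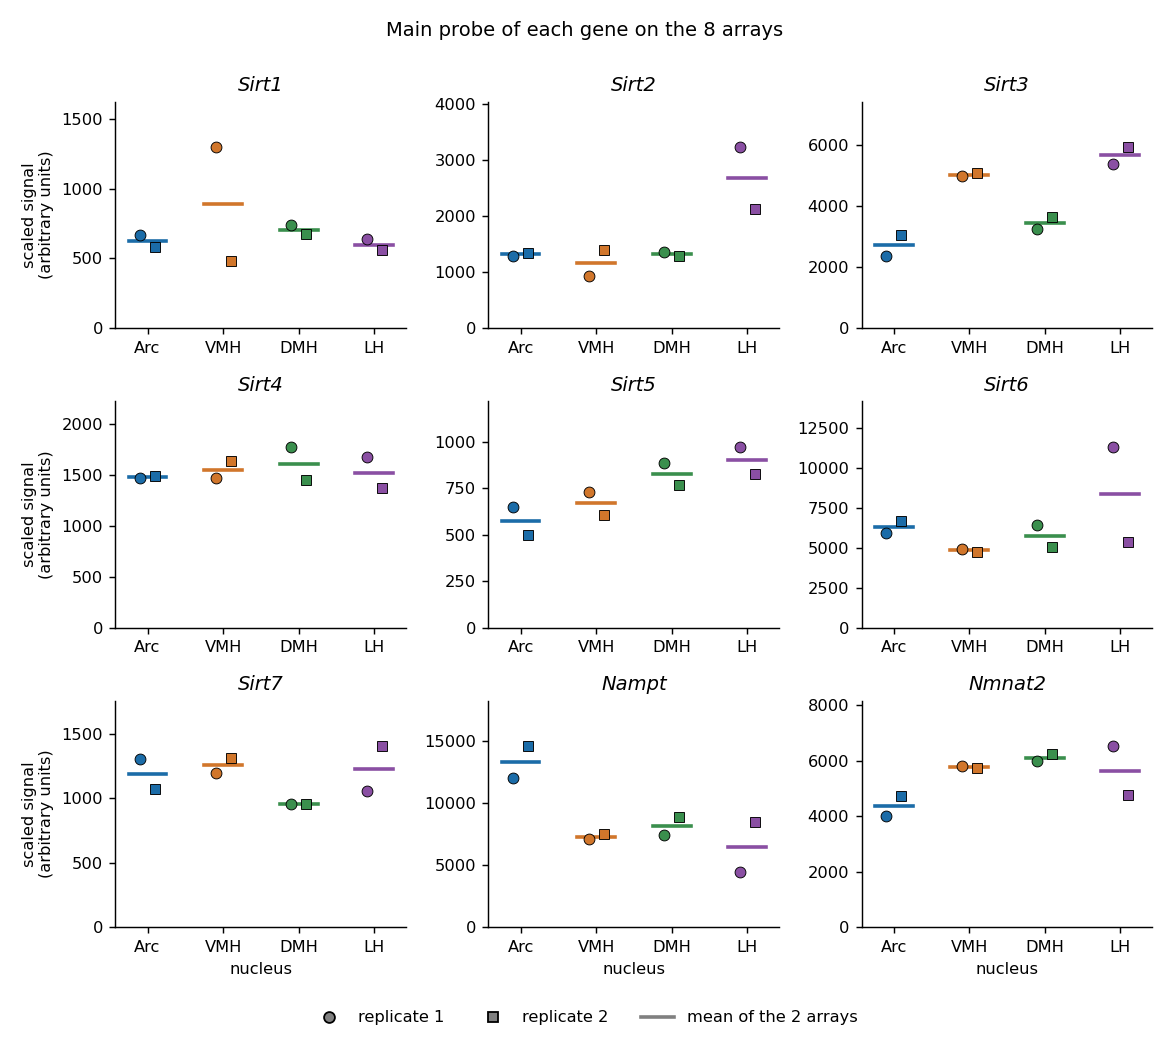
Scaled signal (arbitrary units, linear axis from 0) of the brighter probe of each of the 9 genes on the 8 arrays, with circles for replicate 1, squares for replicate 2, and a line at the mean of the 2 arrays of a nucleus. *Sirt3* was lowest on both Arc arrays and *Nampt* highest on both, the 2 LH arrays stood above all others for *Sirt2*, and the high VMH mean of *Sirt1* came from 1 of its 2 arrays.

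*Sirt1*, which encodes a nuclear deacetylase of histones and transcription factors, was not separated between the 4 nuclei beyond the spread of its arrays. Its scaled signal was 668 and 579 on the Arc arrays, 1299 and 483 on the VMH arrays, 736 and 675 on the DMH arrays, and 638 and 560 on the LH arrays. Only VMH1 stood apart, and the other VMH array was the lowest of all 8. Averaged by nucleus, the LH gave 599 ± 55.5, the Arc 624 ± 62.8, the DMH 705 ± 43.7, and the VMH 891 ± 577 (SD, n = 2 each). Both DMH arrays lay above both Arc and both LH arrays, but no pair of nuclei that are neighbours in this order differed in the test, and the F-test gave an adjusted p of 0.860 (limma). The mean of the DMH and LH minus that of the Arc and VMH was -0.11 on the log2 scale (SE 0.30, 95% interval -0.83 to 0.60, adjusted p = 0.890), and the sign of this difference turned without scaling between arrays (0.07). The VMH minus LH difference was 0.41 with all arrays and -0.31 without VMH1 (adjusted p = 0.648).

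The 3 genes whose signals followed *Sirt1* most closely over the 8 arrays were *Wdfy1*, *Sbf2*, and *Gprasp2*, with Pearson correlations of the log2 signals of 0.960, 0.959, and 0.944 among 14421 candidate probes. *Gprasp2* encodes a protein that sorts G protein-coupled receptors, *Wdfy1* a FYVE domain protein of endosomes, and *Sbf2* a protein of the myotubularin family. All 3 were highest on VMH1, where *Sbf2* read 475 against 206 to 276 elsewhere. Without VMH1 the correlations were 0.886, 0.777, and 0.813 over 7 arrays. The arrays share nuclei and a slide, so these values only describe which probes have a like profile.

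*Sirt2*, whose protein deacetylates tubulin and is abundant in myelin-forming cells, was highest in the LH. Its signal was 1283 and 1349 on the Arc arrays, 933 and 1392 on the VMH arrays, 1364 and 1291 on the DMH arrays, and 3235 and 2127 on the LH arrays. Both LH arrays lay above all 6 others, a pattern found for 12.2% of tested probes, and the remaining nuclei overlapped. The LH mean of 2681 ± 783 (SD, n = 2) was 2.02 times the next highest nucleus. The log2 difference was 1.20 for LH minus VMH (SE 0.29, 95% interval 0.52 to 1.88, adjusted p = 0.063), 1.00 for LH minus Arc (adjusted p = 0.078), and 0.98 for LH minus DMH (adjusted p = 0.194), so none passed. The unadjusted p of the F-test was 0.0159 and its adjusted p 0.108. The LH minus VMH difference did pass in 5 of 20 alternatives. It was 1.51 without LH2 (adjusted p = 0.026), which passed, and 0.90 without LH1 (adjusted p = 0.128), which did not.

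Markers of oligodendrocytes, the myelinating cells of the brain, were high on the same arrays, as were those of some other cell types. The summed signal of 12 markers, among them *Mbp*, *Mag*, and *Mog*, was 131746 and 142262 on the LH arrays, 38399 and 46367 in the VMH, 33786 and 34521 in the DMH, and 22325 and 13611 in the Arc. All 12 passed the F-test. The number called higher in the LH (adjusted p under 0.05 in limma) was 12 of 12 against the Arc, 10 against the VMH, and 6 against the DMH. The median log2 difference of the 12, DMH minus LH, was -2.38. The defining markers were not absent elsewhere, since 9 of the 12 were well above background on all 8 arrays. On both LH arrays the sums of 3 oligodendrocyte precursor markers (3642 and 5031), 8 astrocyte markers (145272 and 151042), and 6 endothelial markers (13636 and 17413) also exceeded all 6 other arrays, which reached at most 2801, 118939.8, and 11360.1. The part of these cells in the *Sirt2* signal was not tested. In tissue taken as a whole, more cells of a type and more RNA per cell cannot be told apart.

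**Figure D2:**
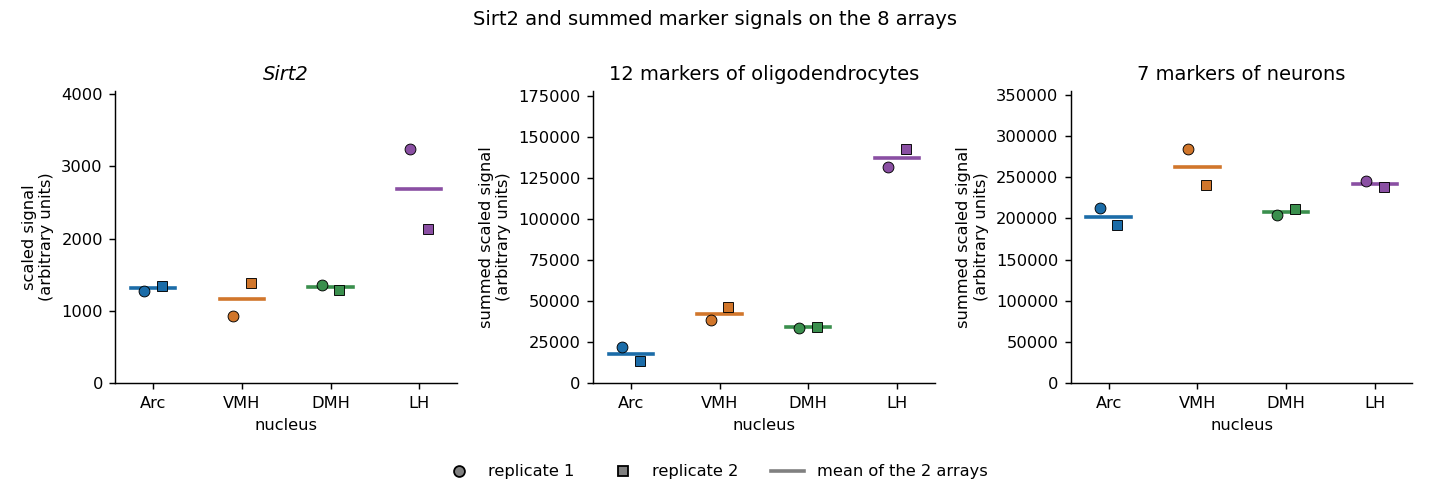
Scaled signal of *Sirt2* (left), summed scaled signal of 12 oligodendrocyte markers (middle), and summed scaled signal of the 7 of 8 neuron markers with a value on every array (right), all in arbitrary units on linear axes from 0, with circles for replicate 1, squares for replicate 2, and lines for the mean of 2 arrays. *Sirt2* and the oligodendrocyte sum were highest on both LH arrays, but LH1 was the higher of the pair for *Sirt2* and LH2 for the sum, and the neuron sum ranged from 191730 to 283525.

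*Sirt3*, the main deacetylase of mitochondrial proteins, was the 1 member with a call. Its signal was 2357 and 3060.0 on the Arc arrays, 4981 and 5081 on the VMH arrays, 3241 and 3647 on the DMH arrays, and 5394 and 5935 on the LH arrays. The nuclei did not overlap at all, in the order Arc, DMH, VMH, and LH from low to high. The arrays of all 4 nuclei were separate, in any order, for 5.8% of tested probes, and without scaling the VMH overlapped both the DMH and the LH. Arc arrays lay below all others for 10.9% of tested probes and LH arrays above all others for 12.2%. The LH mean of 5664 ± 383 exceeded the Arc mean of 2709 ± 497 (SD, n = 2 each) by 2.09-fold, with a fitted log2 difference of 1.07 (SE 0.21, 95% interval 0.57 to 1.58, adjusted p = 0.026 in limma). Among the 12 probes it was the 1 called between these nuclei, against 9.34% of all tested probes (6.02% with the LH higher). An unadjusted p under 0.05 (limma) was found for 5 of the 12, and the share of all tested probes under it is not given here.

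The other *Sirt3* differences did not pass. VMH minus Arc was 0.91 (95% interval 0.40 to 1.41, adjusted p = 0.058), LH minus DMH 0.72 (adjusted p = 0.199), VMH minus DMH 0.55 (adjusted p = 0.357), and DMH minus Arc 0.36 (adjusted p = 0.664). The F-test missed the threshold with an adjusted p of 0.056. The LH minus Arc call kept its direction in all 20 alternatives and was lost in 10 of them, among them no scaling (1.23, adjusted p = 0.072), no filter on dim probes (0.059), a fit of only the Arc and LH arrays (0.113), and 7 of the 8 fits that left out 1 array (0.051 to 0.172), and it was kept without LH1 (0.038). Markers of several cell types moved with this difference. Oligodendrocyte markers did, as given for *Sirt2*, and 3 of 8 neuron markers and 3 of 8 astrocyte markers passed in the direction of higher LH signal. The median log2 differences of the latter 2 lists, Arc minus LH, were -0.67 and -0.61. Medians were of the opposite sign for ependymal cells and tanycytes (2.82), microglia (0.21), and the 1 tested anterior pituitary marker (1.63). The summed signal of 7 neuron markers was 238167 to 245247 in the LH and 191730 to 212433 in the Arc. The summed signal of 8 astrocyte markers was 145272 to 151042 in the LH and 85666 to 93604 in the Arc, and that of 6 endothelial markers 13636 to 17413 and 6958 to 8189. Their part was not tested.

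The 2 other mitochondrial sirtuins showed no difference that passed. *Sirt5*, which removes succinyl and malonyl groups and acts on carbamoyl phosphate synthetase (start window chr13:43365285-43365534, plus strand), read 648 and 496 on the Arc arrays, 730.1 and 608 on the VMH arrays, 886 and 769 on the DMH arrays, and 973 and 826 on the LH arrays. All 4 arrays of the DMH and LH lay above all 4 of the Arc and VMH. The 2 sides were separate, in either direction, for 6.45% of tested probes and, among the 12, for *Sirt5* alone. The difference was 0.49 on the log2 scale (SE 0.16, 95% interval 0.10 to 0.87, adjusted p = 0.181). On unscaled signals the sides overlapped, with a lowest DMH or LH value of 716 and a highest Arc or VMH value of 766. None of the 12 probes passed in this comparison, where 4.36% of all tested probes did. An unadjusted p under 0.05 (limma) was found for 2, *Sirt2* and *Sirt5*, with no share over all tested probes given beside it.

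*Sirt4*, a mitochondrial sirtuin known for lowering glutamate dehydrogenase activity (start window chr5:115484298-115484547, minus strand), was nearly flat on its brighter probe, A_55_P2185372. That probe read 1464 and 1482 in the Arc, 1466 and 1630 in the VMH, 1774 and 1444 in the DMH, with 1672 and 1366 in the LH, and its F-test gave an adjusted p of 0.969. The highest minus lowest nucleus, DMH minus Arc, was 0.12 and turned to -0.028 without DMH1 (adjusted p = 0.995) and was 0.60 without scaling (adjusted p = 0.378). The dimmer probe, A_51_P424641, read 337 and 243 in the Arc, 139 and 194 in the VMH, 372 and 239 in the DMH, with 384 and 240.2 in the LH. On it the VMH arrays lay below all others, a pattern of 7.36% of tested probes, but the F-test gave an adjusted p of 0.311.

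The nuclear sirtuins *Sirt6* and *Sirt7* rest on 2 probes each. *Sirt6*, a deacetylase of histone H3 that acts in DNA repair and glucose metabolism (start windows chr10:81627323-81627572 and chr10:81627567-81627816, minus strand), read 5938 and 6634 in the Arc, 4929 and 4719 in the VMH, 6401 and 5049.9 in the DMH, with 11302 and 5363 in the LH on its brighter probe, A_55_P2185794. The second probe, A_55_P2072468, read 1130.3 on LH1, 475 on LH2, and 417 to 475 on the other 6 arrays. Both probes were high on LH1 and not on LH2, so the LH spread was as large as any difference, and the F-tests gave adjusted p of 0.546 and 0.455. Without LH2, whose removal leaves LH1 alone to stand for the nucleus, LH minus VMH was 1.23 on the brighter probe (adjusted p = 0.031) and LH minus Arc 1.40 on the other (adjusted p = 0.010). With all arrays these were 0.69 (adjusted p = 0.316) and 0.78 (adjusted p = 0.245), and without LH1 they were 0.15 and 0.15.

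*Sirt7*, a deacetylase that works in the nucleolus and on ribosomal gene transcription (start window chr11:120625015-120625264, minus strand), was placed differently by its 2 probes. The brighter one, A_51_P352264, read 1300.0 and 1067 in the Arc, 1198 and 1309 in the VMH, 956 and 957 in the DMH, with 1053 and 1402 in the LH, with the DMH below all others (2.75% of tested probes). The dimmer one, A_55_P2045697, read 392 and 374 in the Arc, 246 and 351 in the VMH, 308 and 293 in the DMH, with 246 and 231 in the LH, with the Arc above all others (8.65% of tested probes). The adjusted p of the F-tests were 0.573 and 0.301, and Arc minus LH was -0.04 on the first probe and 0.68 on the second (95% interval 0.14 to 1.22, adjusted p = 0.113). Leaving out the scaling moves Arc minus DMH by the same amount for every probe, and with it these differences went from 0.30 to -0.18 and from 0.35 to -0.13.

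**Figure D3:**
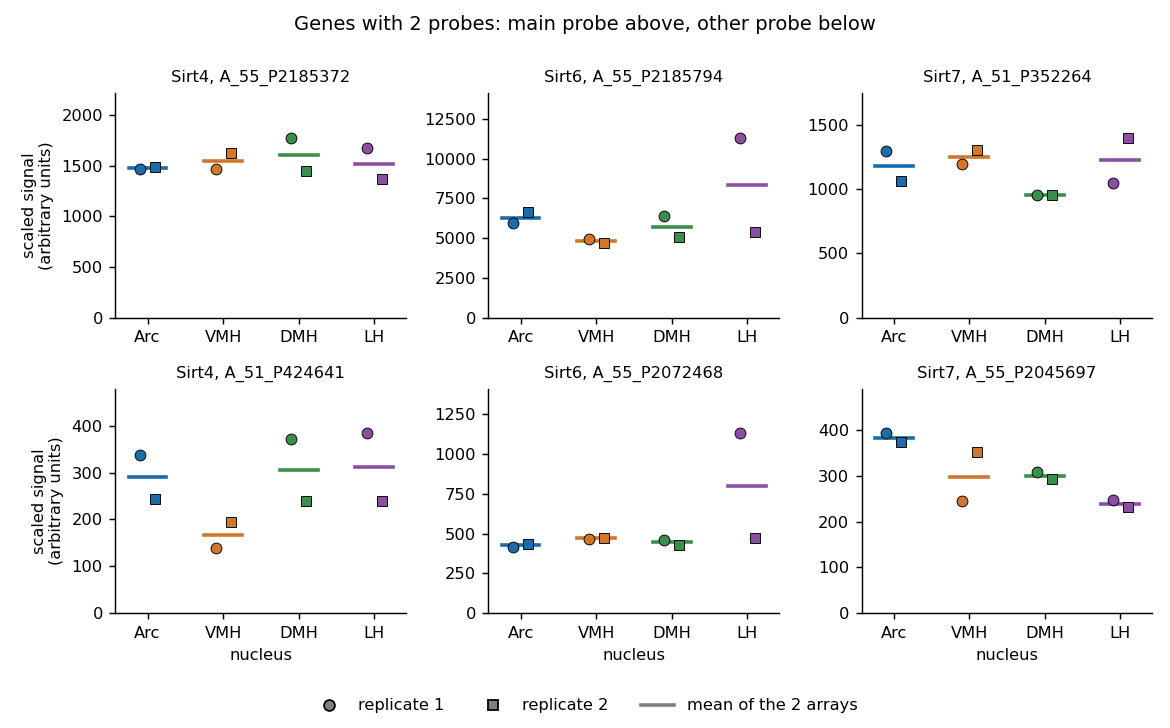
Scaled signals (arbitrary units, linear axes from 0) of the genes with 2 probes, the brighter probe above and the dimmer one below, with circles for replicate 1, squares for replicate 2, and lines for the mean of 2 arrays. Both *Sirt6* probes peaked on LH1 alone, and for none of the 3 genes did the 2 probes rank the nuclei alike.

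*Nampt*, the rate-limiting enzyme of NAD salvage, was highest in the Arc. Its signal was 12038 and 14589 on the Arc arrays, 7109 and 7515 on the VMH arrays, 7402 and 8878 on the DMH arrays, and 4472 and 8520.5 on the LH arrays. Both Arc arrays lay above all 6 others, as for 8.65% of tested probes, although without scaling Arc1 (9967) lay below DMH2 (10789), while the VMH, DMH, and LH overlapped and the 2 LH arrays differed nearly as much as the nuclei. The Arc mean of 13313 ± 1804 (SD, n = 2) was 1.64 times the next highest nucleus. Arc minus LH was 1.10 on the log2 scale (SE 0.32, 95% interval 0.34 to 1.87, adjusted p = 0.081), Arc minus VMH 0.86 (95% interval 0.09 to 1.62, adjusted p = 0.195), and Arc minus DMH 0.71 (95% interval -0.05 to 1.47, adjusted p = 0.513), so none passed. Without scaling, Arc minus DMH was 0.23. The F-test gave an adjusted p of 0.206. The Arc minus LH difference passed in 5 of 20 alternatives, and it was 1.57 without LH2 (adjusted p = 0.011) and 0.64 without LH1 (adjusted p = 0.158). The summed signal of 5 markers of ependymal cells and tanycytes, the cells that line the ventricle beside the Arc, was 4664 to 5890 in the Arc and 1065 to 1449 in the other nuclei, and their part in the *Nampt* signal was not tested.

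*Nmnat2* (start window chr1:152954851-152955100, plus strand) was lowest in the Arc. It read 4019.6 and 4741 on the Arc arrays, 5812 and 5731 on the VMH arrays, 5989 and 6236 on the DMH arrays, and 6524 and 4766 on the LH arrays. The Arc arrays were the lowest of the 8, by a small margin to LH2. No difference passed, the widest being DMH minus Arc at 0.49 (95% interval -0.05 to 1.02, adjusted p = 0.525), and the F-test gave an adjusted p of 0.457. *Nampt* and *Nmnat2*, which catalyse consecutive steps, read highest and lowest in the Arc, with neither departure past the threshold.

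**Figure D4:**
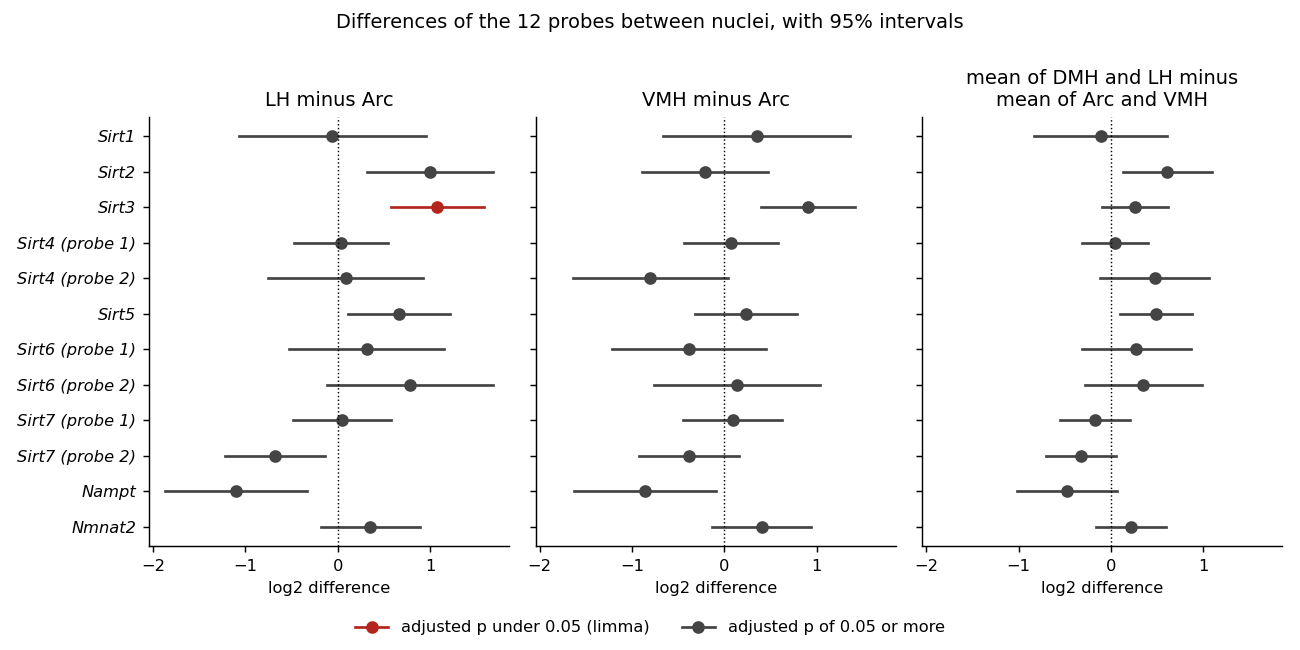
Log2 differences of the 12 probes for LH minus Arc, VMH minus Arc, and the mean of DMH and LH minus the mean of Arc and VMH, with points for the estimate, horizontal bars for the 95% interval, and red for an adjusted p under 0.05 (limma); probe 1 is the brighter probe of a gene. *Sirt3* in LH minus Arc (1.07) is the 1 red point, and the *Nampt* and *Sirt2* estimates of the same panel lie as far from 0 on either side.

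Counts of calls over the 12 probes were 0 for Arc against VMH (5.92% of all tested probes called), Arc against DMH (1.26%), VMH against DMH (2.04%), VMH against LH (5.28%), and DMH against LH (0.924%). Unadjusted p under 0.05 (limma) were found for 2, 0, 2, 2, and 2 probes in these comparisons, with no shares over all tested probes given beside them. The arrays of a pair of nuclei did not overlap for 7 of the 12 probes between the Arc and each other nucleus and between the VMH and DMH, and for 6 between the LH and the VMH or DMH. Without scaling these counts were 6 for Arc and VMH, 11 for Arc and DMH, 7 for Arc and LH, 3 for VMH and DMH, 1 for VMH and LH, and 7 for DMH and LH, where 47.3%, 69.1%, 51.8%, 35.9%, 36.3%, and 50.1% of all tested probes did not overlap, in the same order. The scaled shares are near those of all tested probes, which were 55% for Arc and VMH, 45.1% for Arc and DMH, 55.3% for Arc and LH, 46.2% for VMH and DMH, 49% for VMH and LH, and 45.6% for DMH and LH.

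The rest of the pathway was read from 4 lists with 47 genes, 38 of which were bright enough to be tested, and 6 passed the F-test (limma, 8.34% of all tested probes). Leaving out 1 array kept 5 of these 6 calls without LH1 or without LH2, 1 (*Nkx2-1*) without either VMH array, and 0 in limma without any array of the Arc or DMH. Of 16 genes of NAD synthesis outside the members, 12 were tested and 2 passed. *Pnp*, the purine nucleoside phosphorylase that also splits nicotinamide riboside, read 1576 and 1249.6 in the Arc, 568 and 659 in the VMH, 924 and 1141 in the DMH, with 1285 and 1304 in the LH (adjusted p = 0.049, or 0.076 in the fit blocked on replicate). It was lowest on both VMH arrays and was called in Arc against VMH (adjusted p = 0.027) and VMH against LH (0.041). Of the fits without 1 array, most lost the first call and all lost the second. Arc minus VMH then ran from 1.03 (without Arc1) to 1.37 (without Arc2). VMH minus LH ran from -1.19 (without VMH2) to -0.97 (without VMH1). *Kmo*, kynurenine monooxygenase of the route from tryptophan and in brain mainly a microglial enzyme, read 1734 and 1607 in the Arc, 2619 and 2316 in the VMH, 1039 and 1125 in the DMH, with 631 and 210.4 in the LH (adjusted p = 0.040). It was highest in the VMH and lowest in the LH, with VMH minus LH at 2.76 (adjusted p = 0.022), or 1.96 without LH2, the lower of the LH arrays, and 3.55 without LH1, and this call was lost without either Arc or either VMH array (adjusted p from 0.052 to 0.137). The second probes of *Pnp* and *Kmo* were well above background on 0 of the 8 arrays, so neither call has a check on another probe. The summed signal of 8 microglia markers was 184486 to 208345 in the VMH and 116260.4 to 163806 in the LH, but 0 of the 7 tested were called between these nuclei (limma), and their median log2 difference, VMH minus LH, was -0.29, opposite in sign to that of the sums. Their part was not tested.

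The enzymes closest to the members in the salvage routes did not pass. *Nmnat1*, the nuclear adenylyltransferase, ranged from 176 to 346 over the 8 arrays (adjusted p = 0.300), and *Nmnat3*, the mitochondrial form, from 147 to 309 (adjusted p = 0.235). *Naprt*, which starts the route from nicotinic acid, read 1507 and 1675 in the Arc and 946 to 1459 elsewhere (adjusted p = 0.154). *Nmrk1*, nicotinamide riboside kinase, was well above background on 7 arrays and *Qprt*, which joins the tryptophan route to NAD, on 6, with adjusted p of 0.149 and 0.405. *Nadsyn1*, which amidates the last intermediate, was well above background on none of the 8 arrays, and the same held for *Tdo2*, *Ido1*, and *Kynu* of the tryptophan route.

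Of 9 genes that consume NAD or methylate nicotinamide, 6 were tested and none passed the F-test in limma. *Parp1*, the poly(ADP-ribose) polymerase of DNA repair, ranged from 235 to 605 with no order of nuclei (adjusted p = 0.996), and the NAD glycohydrolase *Cd38* from 776 to 1376 (adjusted p = 0.666). *Sarm1*, the NAD-cleaving enzyme of axon degeneration, was well above background on 7 arrays and ranged from 258 to 537 on those, with 123 on LH2 (adjusted p = 0.322). *Nnmt*, which methylates nicotinamide, was well above background on 6 arrays (adjusted p = 0.407), and *Bst1* and *Parp2* on none.

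Of 12 partners, regulators, and targets of *Sirt1*, 11 were tested and 3 passed. *Nkx2-1*, a homeobox factor of the ventral hypothalamus, read 2533 and 2602 in the Arc, 4902 and 2943 in the VMH, 2173 and 1794 in the DMH, with 973 and 939 in the LH (adjusted p = 0.022). The LH was the lowest nucleus, with VMH minus LH at 1.99 (adjusted p = 0.012) and Arc minus LH at 1.43 (adjusted p = 0.024). *Foxo1*, a forkhead factor deacetylated by SIRT1, read 4256 and 4218 in the Arc, 2214 and 2521 in the VMH, 2035 and 2053 in the DMH, with 1427 and 1669 in the LH (adjusted p = 0.019), and its second probe had an adjusted p of 0.059. *Ppargc1a*, the coactivator of mitochondrial biogenesis, ran the other way, with 1266 and 1723 in the Arc, 2357 and 2677 in the VMH, 2788 and 3119 in the DMH, with 3796 and 5945 in the LH (adjusted p = 0.047, and 0.071 on the second probe). *Hcrtr2*, the orexin receptor gene tied to *Sirt1* in the DMH and LH, was well above background on none of the 8 arrays by its main probe. A probe below this call does not show that the RNA was absent.

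Of 10 substrates of the mitochondrial sirtuins, 9 were tested and 1 passed. *Ppif*, cyclophilin D of the permeability transition pore and a substrate of SIRT3, read 701 and 652 in the Arc, 885 and 956 in the VMH, 1035 and 1042 in the DMH, with 1609 and 1851 in the LH (adjusted p = 0.025). Its order, with the Arc lowest and the LH highest, has the same ends as that of *Sirt3*. In Arc against LH, *Ppif* and *Acss1*, mitochondrial acetyl-CoA synthetase, were called, both higher in the LH (adjusted p = 0.0082 and 0.033), where 6.02% of all tested probes were called with the LH higher. In VMH against LH, *Ppif* and *Acadl*, an acyl-CoA dehydrogenase, were called, both higher in the LH (adjusted p = 0.043 each), where 3.04% of all tested probes were called with the LH higher. Of the 8 fits without 1 array, that of *Ppif* in VMH against LH passed in 1 (without LH1) and that in Arc against LH in 6. *Acss1* and *Acadl* are named after their values were seen. The median log2 difference of the 9 tested genes, Arc minus LH, was -0.78, where that of all tested probes was 0.05. Marker lists of several cell types had medians of the same sign in this comparison. These were -0.67 for neurons, -0.61 for astrocytes, -0.93 for endothelial cells, -0.83 for oligodendrocyte precursors, and -3.66 for oligodendrocytes. The sign was opposite for ependymal cells and tanycytes (2.82), microglia (0.21), and the 1 tested anterior pituitary marker (1.63). The part of these cell types was not tested. *Cps1*, the liver enzyme on which SIRT5 acts, was well above background on none.

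**Figure D5:**
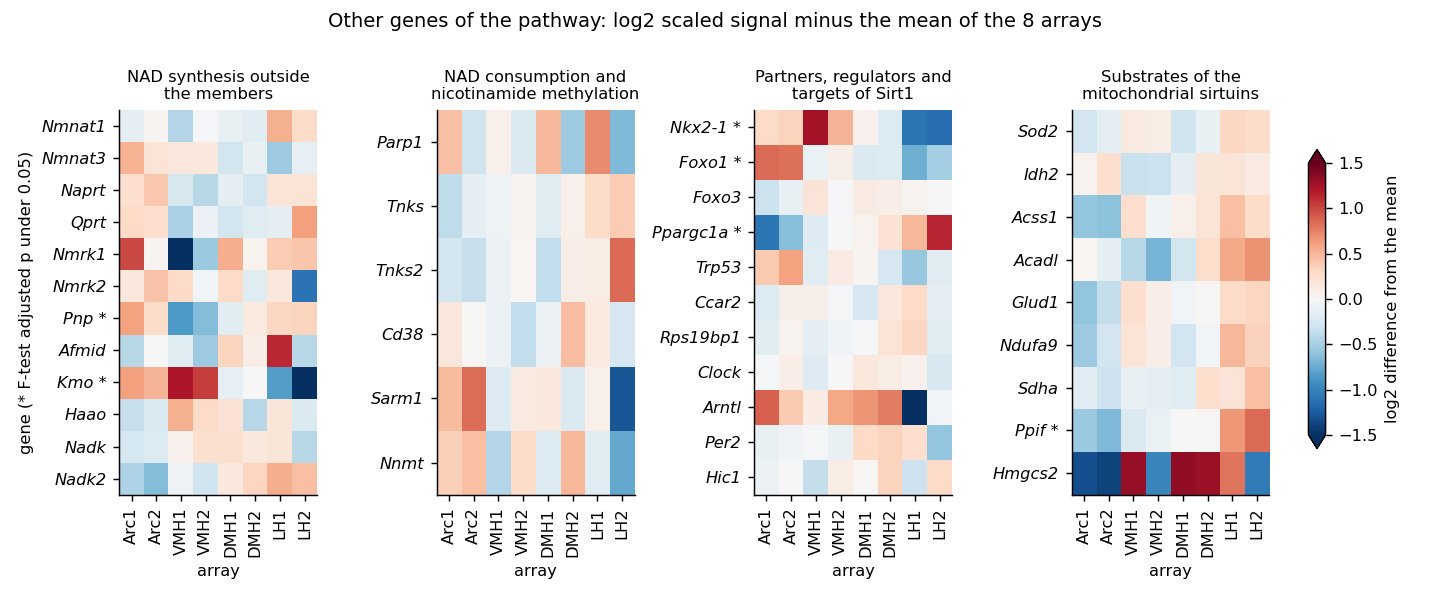
Log2 scaled signal minus the mean of the 8 arrays for the 38 tested genes of the 4 pathway lists, in columns for the 8 arrays, with red above and blue below the mean on a scale that ends at 1.5 to either side and stars for genes past the F-test (adjusted p under 0.05). The 6 starred genes are *Pnp*, *Kmo*, *Nkx2-1*, *Foxo1*, *Ppargc1a*, and *Ppif*.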

How the data were processed

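Tissue of the 4 nuclei was laser-microdissected (Leica), and RNA was isolated (PicoPure), amplified with a whole-transcriptome kit (WTA2), dye-labeled (Kreatech ULS), and hybridized to 8 one-color Agilent mouse arrays on 1 slide, read in 1 scan. Whole-transcriptome amplification can distort levels, and the same protocol was used for every array. The authors deposited red-channel intensities from Feature Extraction (version 10.7.3.1 in the file headers, 11.5.1.1 in the submitters' processing notes), background-subtracted, spatially detrended, with no scaling across arrays. A deposited table of the whole series held the mean of these intensities within 0.51 for at least 99.7% of values on each array and was used as an alternative. The labels name Cy3 and the methods Cy5.

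Spots marked as outliers were left out and spots of a probe averaged. Each array was divided by its 75th percentile, with divisors set to a geometric mean of 1. Log2 values of 28896 probes that both arrays of some nucleus placed well above background were fitted with limma 3.58.1 (R 4.3.3) on all 8 arrays, with an F-test among nuclei, 6 pairwise contrasts, and the mean of the DMH and LH against that of the Arc and VMH. The fit had 4 residual and 3.02 prior degrees of freedom, and p-values were adjusted by Benjamini-Hochberg over all probes tested. Genes were named through RefSeq accessions in the array files, which gave a symbol to 26762 of the 28390 probes with one. The members, marker lists, and pathway lists were chosen with earlier results of these data known. Every member probe is reported, and the brighter probe of a gene, by mean log2 signal, is its main one. Pathway genes are named where the naming rule lists them (*Nmnat1*, *Nmnat3*, *Naprt*, *Nmrk1*, *Nadsyn1*, *Qprt*, *Cd38*, *Bst1*, *Parp1*, *Sarm1*, *Nnmt*, *Nkx2-1*, and *Hcrtr2*) or where they passed the F-test, up to 4 a list, and the 3 genes most like *Sirt1* are given. *Tdo2*, *Ido1*, *Kynu*, *Parp2*, *Cps1*, *Acss1*, and *Acadl* are named outside this rule, after their values were seen. Alternatives covered scaling, background correction, filters, moderation, a replicate block, and leaving out each array. With 2 arrays a nucleus, their number limits the precision. Promoter windows are from RefSeq. The genome build behind the array design is not given in the sources used here.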

Additional observations from a re-analysis of the deposited data

How the results depend on the processing

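No member passed 10-fold with or without scaling, and at a minimum of 2-fold, 1 passed with scaling and 0 without, the latter tried after seeing the data. The F-test called 0 members, and 1 with normexp background correction, with a filter on all 8 arrays, with dim signals raised, and with trended and robust moderation. Arc against LH called 1, and 0 without scaling, without a filter on dim probes, and in a fit of only the nuclei compared, but 2 with normexp or quantile normalization and 3 with the filter on all 8 arrays or with trended and robust moderation. Arc against VMH called 0, and 1 with normexp, with the filter on all 8 arrays, and with trended and robust moderation. VMH against LH called 0, and 1 with the same 3 settings and with dim signals raised. Calls over all probes moved too. Arc against LH went from 2700 to 3126 (normexp), 2647 (quantile), 2756 (filter on all 8 arrays), and 3615 (trended and robust). It fell to 1621 without scaling and 1832 without a filter on dim probes. In the order normexp, filter on all 8 arrays, and trended and robust moderation, Arc against VMH gave 2139, 1708, and 2270, from 1712. VMH against LH gave 1849, 1438, and 1975, and 1684 with dim signals raised, from 1525. Leaving out 1 array gave 0 to 2 calls in the F-test, 0 to 3 in Arc against LH and in VMH against LH, 0 to 1 in Arc against VMH and in DMH against LH, and 0 to 2 for the DMH and LH against the Arc and VMH. The upper ends came without LH2, and Arc against VMH gave 1 without LH1 also. Calls over all probes moved with the array left out as well, from 2700 to between 694 (without Arc1) and 3642 (without LH2) in Arc against LH, from 1525 to between 276 (without VMH1) and 2745 (without LH2) in VMH against LH, and from 267 to between 32 (without DMH1) and 1271 (without LH2) in DMH against LH, and they rose without LH1 too, to 3461, 2004, and 867. The same was tried for the 6 pathway genes after seeing the data. In these fits the lone array of a nucleus is assumed to vary like the others. Of the differences between the highest and the lowest nucleus, that of *Sirt1* (VMH minus LH) ran from -0.31 (without VMH1) to 1.12 (without VMH2) and that of *Sirt4* (DMH minus Arc) from -0.028 (without DMH1) to 0.27 (without DMH2), and to 0.60 without scaling. Over the 12 probes, 216 values under an alternative kept direction and side of the threshold, 12 came to pass, 10 no longer passed, and 2 turned. The cause of these changes was not tested.

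With the replicate number as a block, the member counts were unchanged in every comparison (1 in Arc against LH, 0 elsewhere), and the *Sirt3* call had an adjusted p of 0.031 (limma). Deviations of same-numbered arrays correlated at -0.03 to 0.26, and with 2 numbers this does not pair the arrays. Without scaling, the median of all probes for Arc minus DMH moved from 0.02 to -0.46, and 11 of the 84 member differences turned sign, or 13 with quantile normalization counted too, the largest of them 0.35 in size. The scaling percentile over probes measured on all arrays, chosen after seeing the data, changed no member call. The fit of only the nuclei compared was not run for the contrast of all 4 nuclei.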
